A study of Mus musculus with 3 samples.

Results

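The fibrinogen locus comprises Fga, Fgb and Fgg, the genes of the alpha, beta and gamma chains of fibrinogen, which lie side by side on mouse chromosome 3. Its members are the accessible regions that overlap these 3 gene bodies or the 50 kb on either side, a window of 142 kb at chr3:82957724-83099863 (mm10). Replicates 1, 2 and 3 held 28, 29 and 28 peaks there, of 108997, 119230 and 110455 peaks in all. Merging peaks that shared 1 bp or more gave 30 regions, of which 23 were present in all 3 libraries and are called shared.

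Chromatin accessibility was measured by ATAC-seq, in which Tn5 transposase cuts open DNA, in bulk hepatocytes from wild-type (WT) mouse liver. All 3 libraries are labelled EV. By the labels the animals of this group received AAV8-TBG-Cre, an adeno-associated virus in which TBG, a promoter active in hepatocytes, drives Cre, and hepatocytes were collected 4 days after injection. Nuclei came from sorted cells, and the marker used in the sort is not named. The virus with Sox4, the series' other treatment, was not analysed here, so no treatments are compared. The labels do not state that the libraries came from separate animals, and the spread between them may be technical. Peak height is given as the pileup, the number of extended tags stacked at a summit, for every 1000000 tags of the library (RPM). In bulk cells a lower height in every cell and an open site in fewer cells cannot be told apart.

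Fibrinogen is made almost entirely by hepatocytes. Its 3 chains assemble in the endoplasmic reticulum into a paired hexamer that is secreted into plasma, where thrombin converts it to the fibrin of clots. The genes are transcribed together in liver, and in the acute phase response interleukin 6 raises their transcription through STAT3, with C/EBP factors and HNF1 as further known regulators of their promoters. Fgg and Fga are read from the plus strand and Fgb from the minus strand, so that the 3′ ends of Fga and Fgb face each other. Plrg1, a core spliceosome gene used in all cells, lies just beyond the Fgb start.

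The libraries numbered 1 and 3 resembled each other, and the library labelled EV replicate 2 stood apart. At Sox4 the tallest peak reached 1.33, 21.9 and 1.14 RPM in replicates 1, 2 and 3, although all 3 carry the label of the virus without Sox4. This goes against the label of replicate 2, and whether that library is mislabelled was not tested. Replicate 2 below means the library labelled so, and means with n = 3 include it. Tag totals were 96066404, 116147036 and 117450440. Hepatocyte markers had a peak within 1000 bp of their transcription start in all 3 libraries at 5 of 5 genes with a listed start, against 63.2% of all 17273 protein-coding genes with one. This was so at 0 of 3 Kupffer cell, 0 of 2 endothelial, 0 of 1 lymphocyte and 0 of 3 platelet genes, at 1 of 3 cholangiocyte genes (Epcam) and at 2 of 3 stellate cell genes (Lrat and Reln), the latter near the share of all genes.

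The 250 bases before each fibrinogen start are shown because the start region of each gene overlaps them, with the summit inside them at Fga and Fgb and just past the start at Fgg. They come from RefSeq (GRCm38.p6, the coordinates of mm10) at chr3:83007474-83007723 on the plus strand for Fgg, chr3:83025903-83026152 on the plus strand for Fga and chr3:83049864-83050113 on the minus strand for Fgb. Each is written 5′ to 3′ in the gene's own direction and ends 1 base before the start. Capitals mark matches to the motifs named in the next paragraph.
Fgg promoter: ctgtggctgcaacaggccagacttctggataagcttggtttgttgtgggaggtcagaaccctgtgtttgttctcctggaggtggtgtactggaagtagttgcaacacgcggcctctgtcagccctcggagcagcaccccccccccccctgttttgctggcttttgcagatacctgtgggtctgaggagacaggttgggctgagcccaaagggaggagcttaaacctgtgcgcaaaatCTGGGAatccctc
Fga promoter: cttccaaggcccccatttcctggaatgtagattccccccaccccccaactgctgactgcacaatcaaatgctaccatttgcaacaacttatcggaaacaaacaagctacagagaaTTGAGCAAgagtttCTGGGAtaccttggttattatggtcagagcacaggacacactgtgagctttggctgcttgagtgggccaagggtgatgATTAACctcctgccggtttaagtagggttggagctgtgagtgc
Fgb promoter: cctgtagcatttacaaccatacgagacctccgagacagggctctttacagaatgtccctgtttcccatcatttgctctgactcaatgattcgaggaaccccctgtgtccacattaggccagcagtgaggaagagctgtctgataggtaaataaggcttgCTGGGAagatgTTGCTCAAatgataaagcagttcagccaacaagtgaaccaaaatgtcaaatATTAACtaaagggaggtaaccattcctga

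The letters of 6 motifs of liver promoters were searched on both strands: the HNF1 core (GTTAAT), a C/EBP site (TTNNGCAA), the core of the interleukin 6 response element (CTGGGA), HNF4 (CAAAGTCCA), FOXA (TGTTTAC) and a TATA box (TATAAA). Fga and Fgb each held the first 3 of these, without overlap between them. In Fga, TTGAGCAA began 135 bases before the start, CTGGGA 121 bases before it and ATTAAC, the HNF1 core read on the other strand, 43 bases before it. In Fgb the order was CTGGGA at 91 bases, TTGCTCAA at 80 bases and ATTAAC at 29 bases before the start. Fgg held CTGGGA alone, 13 bases before its start. Among 21044 promoter windows of 17273 protein-coding genes, the HNF1 core occurred in 5.85%, the C/EBP letters in 9.18% and CTGGGA in 27.4%. All 3 were held by 25 windows (0.119%), those of Fga and Fgb among them. This combination was not planned and is the one held by Fga and Fgb, so its share is no test of rarity. HNF4, FOXA and TATA letters, present in 0.394%, 2.64% and 11.7% of windows, were not in these 3 sequences. A match is a description of the letters and not a measured binding site. The 3 promoters were poor in CpG, with 4, 2 and 3 CpG in Fgg, Fga and Fgb, against 28 in Plrg1 and a median of 10. Their GC content was 56.8%, 49.2% and 44.8%, against 69.6% in Plrg1 and a median of 55.6%.

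All 3 fibrinogen genes had a start peak in every library, as had 63.2% of 17273 protein-coding genes with a listed start (63.5% in replicates 1 and 3 alone). The start of Fgg, which encodes the gamma chain, carried the tallest region of the locus in each library. Its pileup in RPM was 11.5, 8.43 and 10.3 in replicates 1, 2 and 3 (10.1 ± 1.53, SD, n = 3). The Fga start reached 9.19, 7.47 and 8.60 (8.42 ± 0.873, SD, n = 3). The Fgb start reached 6.82, 6.16 and 7.22 (6.73 ± 0.537, SD, n = 3). The order Fgg, Fga, Fgb thus held within each library, and replicate 2 was the lowest library for each gene on this scale. Without replicate 2 the means were 10.9, 8.90 and 7.02 for Fgg, Fga and Fgb. The median over the 10914 genes open in all 3 libraries was 6.12, and the fibrinogen starts lay at percentiles 95.9 (Fgg), 82.9 (Fga) and 59.4 (Fgb) of them.

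The steps between the genes were modest but of one sign. Within libraries the Fgg start was 1.19 times as tall as that of Fga (log2 0.25 ± 0.0734, SD), higher in 3 of 3 libraries. Fga was 1.25 times as tall as Fgb (log2 0.32 ± 0.0962, SD), again in 3 of 3, and Fgg 1.49 times as tall as Fgb (log2 0.57 ± 0.157, SD). A two-sided exact sign-flip permutation test gave p = 0.25 for each of the 3 pairs (adjusted p = 0.25), which is the smallest p that 3 libraries allow. The highest library of Fgb (7.22) lay below the lowest of Fga (7.47), whereas the ranges of Fga and Fgg overlapped.

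**Figure D1:**
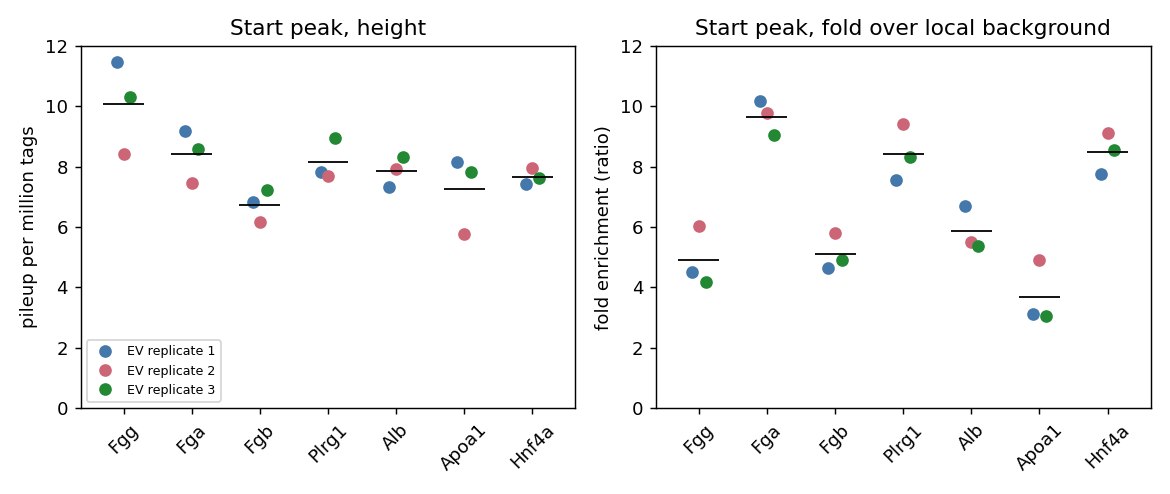
Start peaks of the fibrinogen genes, of Plrg1 and of 3 other hepatocyte genes, as pileup in RPM (left) and as the authors' fold enrichment, a ratio (right); points are the 3 libraries and lines their means. Fgg was the tallest of the 3 fibrinogen starts in each library, whereas Fga had the highest fold. Serpina1a, a further hepatocyte comparator, is not drawn. Its start was lower than all of these, at 3.38, 2.97 and 3.34 RPM in replicates 1, 2 and 3 (percentile 21.7 of open starts).

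Ranked by the authors' fold enrichment over local background, the order changed. Fga had folds of 10.2, 9.77 and 9.04, Fgb 4.66, 5.79 and 4.91, and Fgg 4.51, 6.05 and 4.17 in replicates 1, 2 and 3. The Fgg fold was 0.502 times that of Fga, lower in 3 of 3 libraries (exact p = 0.25), and the fold of Fgg over Fgb was within the spread between libraries (log2 -0.072 ± 0.15, SD). The ratio of pileup to fold, which approximates the background the caller used, was 2.13 ± 0.643 RPM at Fgg, 1.33 ± 0.234 at Fgb and 0.873 ± 0.0966 at Fga (SD, n = 3), against a median of 0.489 over all open starts. Among all open gene starts the 3 genes had fold percentiles of 7.17 (Fgg), 37.5 (Fga) and 8.13 (Fgb). The low fold of Fgg therefore stood beside a tall pileup (percentile 95.9), and that of Fgb beside one nearer the median (percentile 59.4).

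The position and width of the start peaks also differed. Fgg summits lay 81, 55 and 71 bp inside the gene in replicates 1, 2 and 3. Fga summits lay 34, 44 and 47 bp before the start, near but not over the HNF1 letters shown above, which begin 43 bases before it. With tags lengthened to 200 bp, a summit does not mark a site to the base. Fgb summits lay 2, 2 and 18 bp before the start. The Fga peak was the broadest, at 1118, 1196 and 1129 bp, whereas the Fgg peak spanned 668, 631 and 605 bp and the Fgb peak 449, 464 and 457 bp. The width ranges of the 3 genes did not overlap. A called width depends on the background used by the caller. By the ratio of pileup to fold this was lowest at Fga (0.873 RPM), against 1.33 at Fgb and 2.13 at Fgg. Its part in the widths was not tested. The lncRNA Gm30097 runs antisense across the Fgg start, and accessibility there cannot be assigned to one gene or the other.

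**Figure D2:**
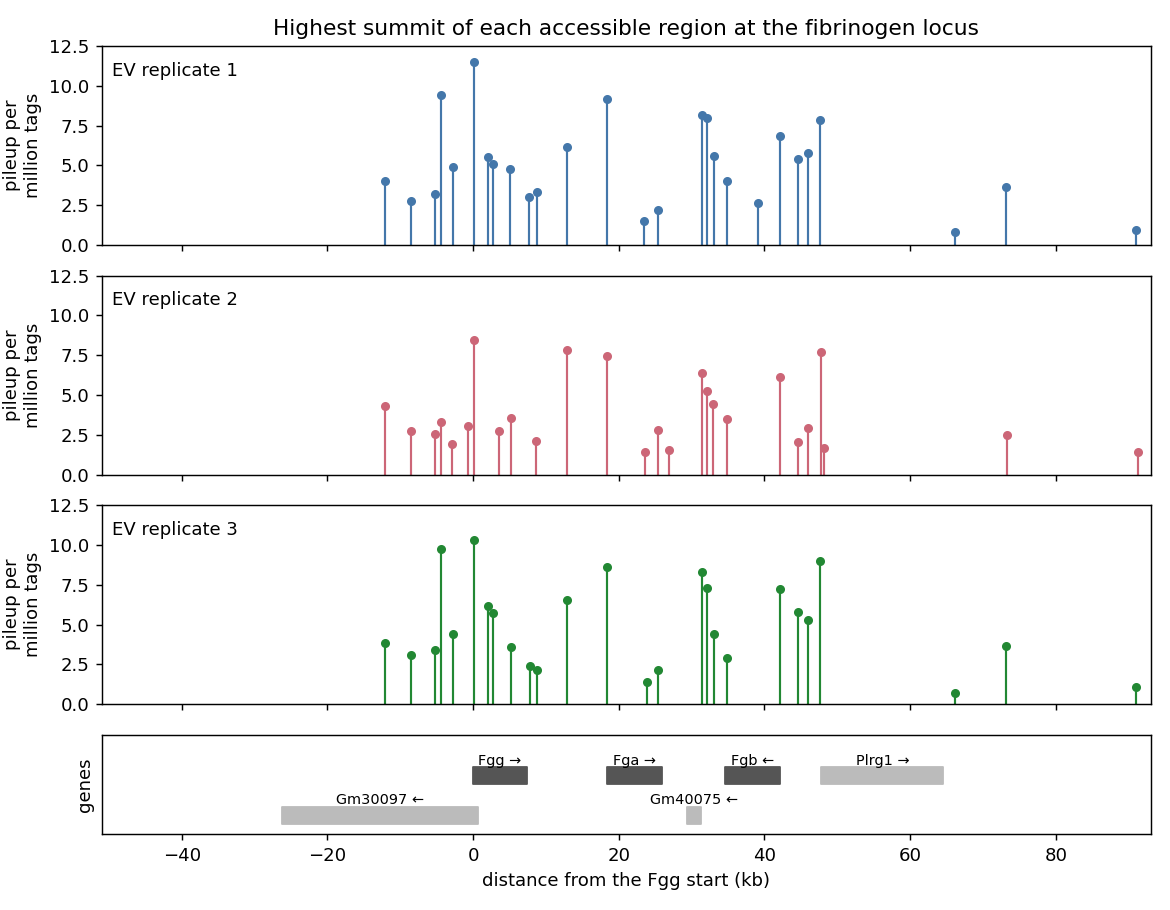
Highest summit of each region along the fibrinogen locus, as pileup in RPM in each library against the distance from the Fgg start in kb; boxes show genes and arrows their direction. The summit 4435 bp before Fgg reached 9.43 and 9.77 in replicates 1 and 3 and 3.29 in replicate 2.

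Shared regions lay in the gene cluster and close to it. The 42.1 kb from Fgg to Fgb held 13 shared regions, or 3.08 per 10 kb, against 5 in the 50 kb before Fgg and 5 in the 50 kb after Fgb, 1 per 10 kb on either side. That difference rests on the outer flanks, since 7 of these 10 lay within 10 kb of the genes, or 3.50 per 10 kb. Peaks covered 12.9%, 12.2% and 11.6% of the window in replicates 1, 2 and 3. The first 37.5 kb of the window held no peak in any library. A pair of further peak-free stretches of 17.2 and 17.1 kb lay beyond the Plrg1 start. Beside the 4 starts of Fgg, Fga, Fgb and Plrg1 (means of 6.73 to 10.1 RPM), 19 shared regions lay away from them, with means of 1.15 to 7.63. At the edges of the window, the region at chr3:83098269-83099320 was included with 0.926, 1.44 and 1.07 RPM, and the nearest region outside, 5.10 kb before the window, had 0.291, 1.31 and 0.553.

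By the mean of all 3 libraries, the tallest region away from the 4 gene starts lay between Fga and Fgb. At chr3:83038867-83039419, across the annotated start of the lncRNA Gm40075 and 10769 bp downstream of the Fgb start, past its 3′ end, the pileup was 8.17, 6.40 and 8.32 RPM (7.63 ± 1.07, SD, n = 3). A neighbour at chr3:83039693-83040074 reached 7.96, 5.24 and 7.32. A broad region of 1951 bp at chr3:83040224-83042174, which stops just short of the 3′ end of Fgb, reached 5.59, 4.45 and 4.38. These 3 regions and a weaker one inside Fgb (3.99, 3.47 and 2.89) form an almost unbroken run at the 3′ end of Fgb. The first 2 of them were taller than the Fgb start itself in replicates 1 and 3, and the first also in replicate 2. By fold the first (4.00, 3.98 and 5.08) exceeded the Fgb start (4.66, 5.79 and 4.91) in replicate 3 alone. The second (3.77, 3.30 and 4.36) was below it in each library.

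Between Fgg and Fga, 5608 bp before the Fga start, a region at chr3:83020096-83020797 reached 6.14, 7.83 and 6.57 RPM, and it was higher in replicate 2 than in both others. Its folds of 6.91, 10.5 and 7.91 exceeded those of the Fgg start in each library. Inside Fgg, a region 2777 bp past the start reached 5.10, 2.72 and 5.74, and one 5004 bp past it 4.76, 3.56 and 3.62. Each distance is that of the tallest library's summit, and summits can differ between libraries. In the first of these regions they lay at chr3:83010474, 83011262 and 83010501 in replicates 1, 2 and 3, and in the second at 83012728, 83012929 and 83012929. Inside Fga the regions were low, at 1.53, 1.4 and 1.37 RPM 5085 bp past the start and at 2.22, 2.81 and 2.17 near the 3′ end. These means of 1.43 and 2.40 were the lowest among shared regions inside the 3 genes.

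Upstream of Fgg stood a series of 5 shared regions. The tallest, at chr3:83002946-83003610 and 4435 bp before the start, reached 9.43, 3.29 and 9.77 RPM. It was second only to the Fgg start in replicates 1 and 3, and 12th of the 23 shared regions in replicate 2. Without the library labelled EV replicate 2 its mean was 9.60 ± 0.237 (SD, n = 2), against 7.50 ± 3.65 with it. A region 2813 bp before the start reached 4.88, 1.91 and 4.39. The farthest, at chr3:82995224-82995779, holds another annotated start of Gm30097 and reached 4.00, 4.30 and 3.83, with folds of 15.6, 16.3 and 15.8. The highest folds of the window belonged to an isolated region 31088 bp before the Fgb start, beyond Plrg1, with 18.2, 17.0 and 20.2 at a pileup of 3.65, 2.51 and 3.65 RPM.

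Between Fgb and Plrg1, 2440 bp before the Fgb start, a region at chr3:83052129-83052565 reached 5.39, 2.03 and 5.82 RPM. Another 3783 bp before it reached 5.75, 2.94 and 5.28. Both were lower in replicate 2 than in either other library. The Plrg1 start, at 7.83, 7.69 and 8.97, varied less.

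**Figure D3:**
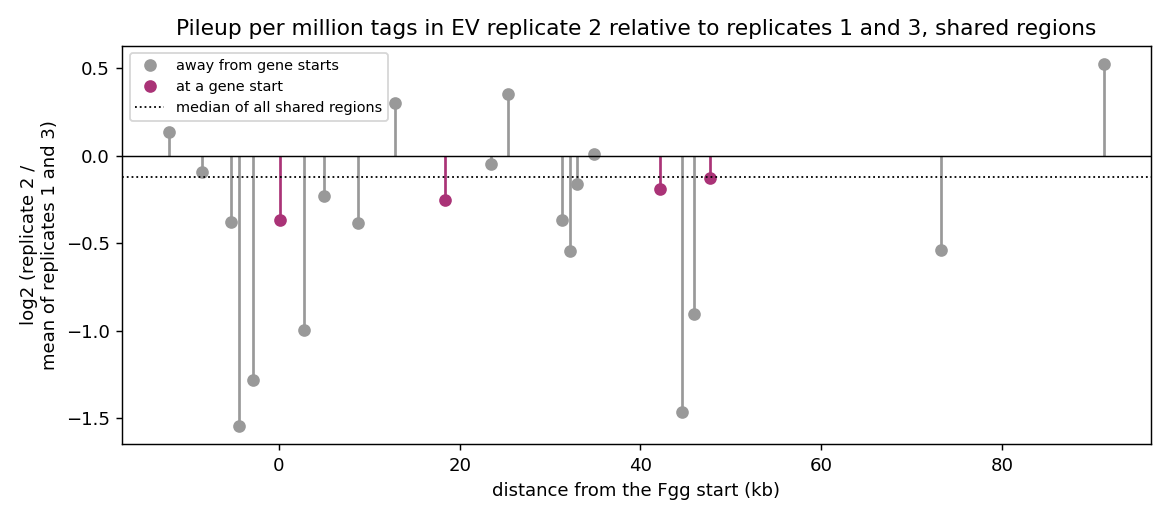
Pileup in RPM of each of the 23 shared regions in replicate 2 relative to the mean of replicates 1 and 3, as log2, against the distance from the Fgg start in kb; the dotted line is the median of all 85621 shared regions. The 3 lowest values, down to -1.55, belong to regions away from gene starts, before Fgg and before Fgb.

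The profile of the locus was most alike in replicates 1 and 3. Across the 23 shared regions, Pearson's r of log2 pileup was 0.969 between replicates 1 and 3, 0.779 between 1 and 2 and 0.778 between 2 and 3, as a description of regions that share their libraries. On the RPM scale, replicate 2 lay over 1.5 times below both others at 5 of the 23 (21.7%), against 20.4% of all shared regions, and over 1.5 times above both at 0 of 23, against 11%. The share of lower regions was therefore near that of the genome. They included the region 2777 bp past the Fgg start, where the summit of replicate 2 lay elsewhere in the region. Replicate 2 was the lowest library at 16 of 23 (69.6%), against 51.9%. Scaled by each library's median pileup, 3 of 23 stayed over 1.5 times below (13%, against 11%) and 2 of 23 lay above (8.70%, against 21.0%). On that scale it was lowest at 7 (30.4%, against 30.9%) and highest at 11 (47.8%, against 58.4%). On both scales the regions 4435 and 2813 bp before Fgg and 2440 bp before Fgb were among the lower ones. Their mean in replicates 1 and 3 was 2.92, 2.43 and 2.76 times that in replicate 2 on the RPM scale.

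Presence of peaks was also compared. Of the 30 regions, 23 (76.7%) were shared, against 61.5% of 139289 regions in the genome. When peaks were merged again without replicate 2, 27 of 29 regions (93.1%) were in both remaining libraries, against 84.2% of all regions. 3 regions (10%) had a peak in replicates 1 and 3 and not in 2, against 8.77% of all, and 3 (10%) were found in replicate 2 alone, against 16.9%. The first of these shares is near that of the genome. The tallest region missing from replicate 2 lay 2102 bp inside Fgg at 5.52 and 6.16 RPM. A region without a called peak may still be accessible below the caller's threshold.

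**Figure D4:**
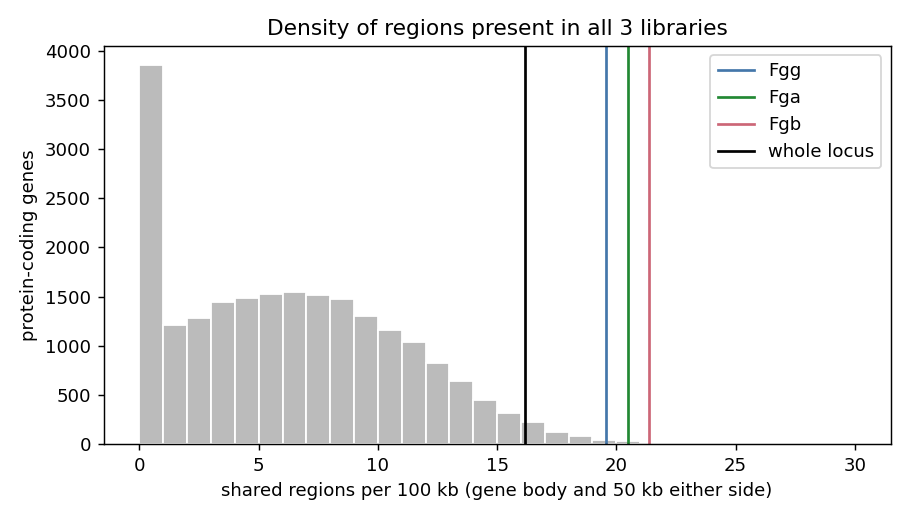
Number of protein-coding genes by the density of shared regions over the gene body and 50 kb either side, per 100 kb; lines mark Fgg, Fga, Fgb and the whole locus. All 4 lines lie in the right tail, at 16.2 per 100 kb or more, against a median of 6.01.

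The density of shared regions was high for the genome. The locus held 16.2 per 100 kb, more than 97.7% of 21627 protein-coding genes with the same flanks, whose median was 6.01. Leaving out single libraries gave percentiles of 96.8 to 98.0. Taken singly, Fgg had 21, Fga 22 and Fgb 23 shared regions within 50 kb, and the median gene had 8. These windows overlap one another and do not count as separate observations. By the density of single genes, Fgg, Fga and Fgb stood at percentiles 99.6, 99.8 and 99.9. Alb, Apoa1 and Hnf4a stood at 99.7, 99.96 and 98.8, so a high density was not particular to fibrinogen.

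The loci of 3 other sets of hepatocyte genes were compared by the same rule. Fibrinogen held 19.9 ± 0.406 peaks per 100 kb, the Alb and Afp locus (albumin and alpha-fetoprotein) 23.6 ± 3.38, the Apoa1 to Apoa5 apolipoprotein cluster 21.2 ± 1.07 and the Hnf4a locus 25.9 ± 2.41 (SD, n = 3). Peaks covered 12.2 ± 0.653% of the fibrinogen window, less than the 15.5 ± 0.959%, 15.9 ± 0.828% and 15.4 ± 0.537% of the others in 3 of 3 libraries each. Its median peak height of 3.91 ± 1.02 RPM was above that of Hnf4a (2.03 ± 0.413, SD, n = 3) in 3 of 3 libraries, and above those of Alb and Afp (3.31 ± 1.15) and Apoa1 to Apoa5 (3.6 ± 1.22) in replicates 1 and 2 but not 3. By median fold the order against the apolipoprotein cluster was the other way, with 3.44 ± 0.281 at fibrinogen and 5.58 ± 0.363 there (log2 -0.70 ± 0.199, SD, n = 3), lower in 3 of 3 libraries. In 21 such comparisons the smallest exact sign-flip p was 0.25 (two-sided, adjusted p = 0.404), the lowest that 3 libraries allow.

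Other clotting genes made by hepatocytes were open as well. Of 22 genes on a list of coagulation and fibrinolysis factors, 18 had a listed start, and 18 of 18 had a start peak in all 3 libraries, against 63.2% of genes. Their median height was 5.73 RPM, below the 6.12 of all open starts. Heights ran from 3.91 ± 0.336 at F5, the gene of factor V, and 3.98 ± 0.0423 at F9, of factor IX, to 7.99 ± 0.993 at F2, the prothrombin gene, and 8.45 ± 1.26 at F10, of factor X (SD, n = 3). Fgg was taller than 18 of these 18 in each library. Fga was taller than 18, 18 and 15 of them in replicates 1, 2 and 3, and Fgb than 10, 14 and 12.

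**Figure D5:**
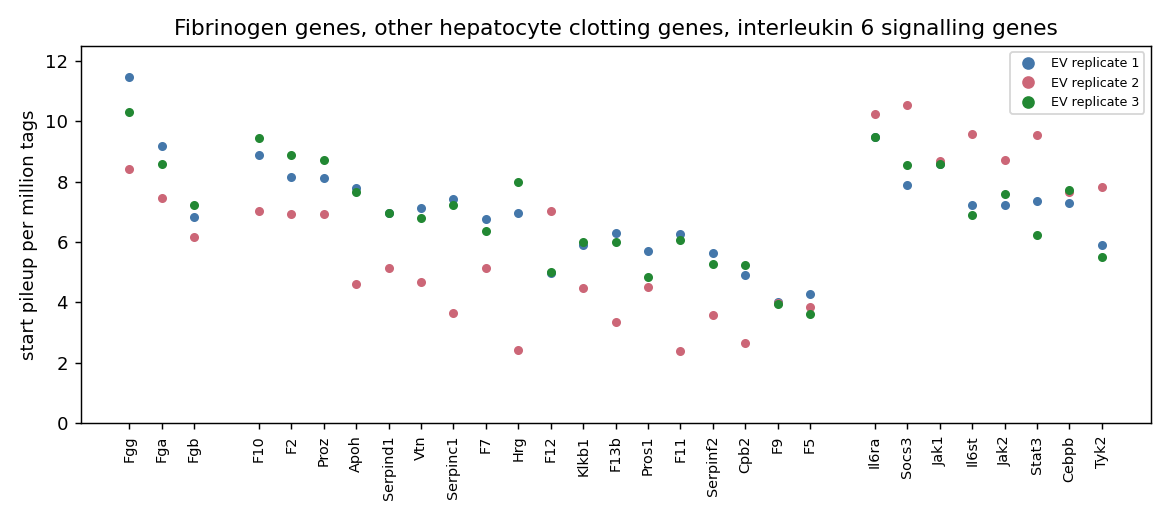
Start pileup in RPM in the 3 libraries for the fibrinogen genes (left), other hepatocyte clotting genes (middle) and interleukin 6 signalling genes (right), each ordered by mean. Replicate 2 was lowest at 15 of 18 clotting genes and highest at 7 of 8 signalling genes on this scale.

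The place of replicate 2 among the libraries was counted for the gene groups, with no test of a difference between groups. On the RPM scale it was the lowest library at 3 of 3 fibrinogen starts and at 15 of 18 other clotting starts, against 24.4% of all open gene starts. The exceptions, named after their values were seen, were F5, F9 and F12. Scaled by the library's median pileup it was lowest at 0 of 3 fibrinogen and 10 of 18 clotting starts, against 4.91% of all. Its rank at fibrinogen thus depends on the scale. On the second scale it was highest at Fga and Fgb, as at 92.3% of starts, and between the others at Fgg (8.29, 7.83 and 7.70 times the median). The median log2 of replicate 2 over the mean of replicates 1 and 3 was lower at fibrinogen than at all starts. It was -0.25 against 0.12 in RPM, and 0.087 against 0.46 on the second scale. The second scale divides each library by 1 number, which moves this log2 almost equally at every start. It is therefore no separate check of that difference. These are values of 1 library against 2 others, without a replicate check.

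Of 11 genes on a list of interleukin 6 and glucocorticoid signalling to fibrinogen, 8 had a listed start, all of them in interleukin 6 signalling, and the glucocorticoid receptor gene Nr3c1 was not measured. A start peak was present in all 3 libraries at 8 of 8, against 63.2% of all genes. Il6ra, the interleukin 6 receptor, reached 9.74 ± 0.442 RPM, and Socs3, a feedback inhibitor, 9.0 ± 1.39. Cebpb, of the C/EBP family, reached 7.55 ± 0.224, and Tyk2, a Janus kinase, 6.41 ± 1.24 (SD, n = 3). Replicate 2 was the highest library at 7 of these 8 on the RPM scale, against 63.2% of all open starts, and at 8 of 8 when scaled by the library's median, against 92.3%.

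Clotting and fibrinogen receptor genes of other cells made a further list. Of 14 on the list, 8 had a listed start, and 1 of these 8 had a start peak in all 3 libraries, against 63.2% of all genes. It was F3, the gene of tissue factor, at 7.29, 6.36 and 7.99 RPM. The other 7 had none in any library, among them Itga2b and Gp1ba of platelets and F13a1, the factor XIII A chain. Of 8 relatives with a fibrinogen-like domain, 5 had a listed start. A start peak was present in all 3 libraries at 3 of these 5, near the 63.2% of all genes. They were Fcna (4.47, 3.00 and 4.86), Fgl2 (0.552, 1.89 and 0.417) and Fibcd1 (0.375, 0.758 and 0.298), and Angptl6 and Tnc had none. Median peak heights of 1.38, 1.08 and 1.34 RPM in replicates 1, 2 and 3 were above Fibcd1 in each library. They were above Fgl2 in replicates 1 and 3.

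The genes nearest to each member in start height over the 3 libraries were found by the Euclidean distance of log2 RPM among 10911 genes. For Fga they were Sar1b, Nsfl1c and Ccdc91 (distances of 0.0383 to 0.0490), and for Fgb H4c4, Kdm7a and Cep72 (0.0289 to 0.0426). For Fgg they were Etfdh and 4930579G24Rik, which share 1 start peak, and Ighmbp2 (0.107 to 0.118). The fold of Nsfl1c was 20.7 on average, against 9.66 for Fga, so equal height did not go with equal fold.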

How the data were processed

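ATAC-seq peak lists of 3 EV libraries were used. Per the submitters' processing notes, Bowtie2, Picard, deepTools and MACS2 were used with mm10, and settings of the alignment are not given in the sources used here. Per the file headers, MACS version 2.2.7.1 called peaks on each library alone without a control, keeping duplicates, at a q threshold of 0.05, after moving the ends of tags by 100 bp and lengthening them to 200 bp. The authors deposited the pileup, a signal that is not scaled for depth. The fold, a ratio to the higher of genome-wide and regional background (10000 bp), and the −log10 p and −log10 q values were also deposited by the authors and describe or filter peaks within a list.

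Lines sharing chromosome, start and end were 1 peak. Pileups were scaled to 1000000 tags (RPM) by the file header's total. Peaks overlapping by 1 bp or more were merged. Gene positions, starts and promoters came from RefSeq GRCm38.p6, which lists a start for 17273 of 21627 protein-coding genes on the chromosomes used, and the 4354 others have no value here. A start peak is the highest summit within 1000 bp of a start. Differences within libraries were tested by exact sign-flip permutation with Benjamini-Hochberg adjustment. Named were the 3 genes, those in the window, the comparators, the 2 highest and 2 lowest of each list and the 3 nearest genes in height. Genes named as exceptions were chosen after their values were seen, as was the 1.5 times limit for replicate 2. The count of promoter windows with 3 motifs together was not planned. Members and lists were chosen with earlier results of these data known. The merging was tested on simulated peaks set well apart, so the joining of close neighbours was not tested. Python 3.11.15 and pandas 2.3.3 were used. Tag totals limit precision, but peak lists give no interval for a height.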

Additional observations from a re-analysis of the deposited data

How the results depend on the processing

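The number of shared regions at the locus, 23, ranged from 20 to 26 with 50% reciprocal overlap, a −log10 q of 10 or more, the 50000 tallest peaks per library, or windows of 10 or 100 kb, and from 23 to 27 without single libraries. Peaks per library stayed between 24.7 and 41.3, the latter counting each summit, and between 28 and 28.5 without single libraries. Divided by the median pileup of the library, which is another unit, the start heights were 7.94 for Fgg, 6.67 for Fga and 5.35 for Fgb. Division by 1 number per library cannot change the order of genes within it, so this is no check of the order. With fold enrichment in place of pileup, the log2 difference of Fgg from Fga turned to -0.99 and that from Fgb to -0.072, and the cause was not tested. Without single libraries the log2 differences ranged from 0.22 to 0.29 (Fgg over Fga), 0.27 to 0.36 (Fga over Fgb) and 0.48 to 0.63 (Fgg over Fgb). The share of genes with a start peak ranged from 61.1% to 63.8% over its alternatives. Leaving out single libraries for the density percentile, the share of shared regions and the region 4435 bp before Fgg, and the second scaling for replicate 2, were alternatives added after seeing the data. No paired analysis was possible because there is only 1 group, so replicate numbers pair no samples across groups. Genes and loci were compared within libraries.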
